A study of Homo sapiens with 5 samples.

Results

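The genes described here are 41 human genes that copy DNA or open the way to S phase, followed in REH leukaemia cells taken from the brain and the spleen of mice. They were chosen by name for their function, with earlier results of these data known, and were found by Ensembl identifier among the 65217 human gene identifiers of the deposited count table. All 41 were present and all 41 passed the filter on low counts. REH is an established human cell line from an acute lymphoblastic leukaemia of precursor B cells, with the t(12;21) ETV6-RUNX1 (TEL-AML1) fusion. It was transplanted into NSG mice (NOD.Cg-PrkdcscidIl2rgtm1Wjl/SzJ, a strain without mature lymphocytes or natural killer cells) aged 6 to 10 weeks. Blasts were recovered from the leptomeninges, called brain in the labels and here, or from the spleen, and were enriched on a Ficoll gradient. No drug was given to either group, and both come from the same unmodified cell line, so the groups differ by labelled site. RNA of 5 mice was pooled for each library and the experiment was run on 3 occasions, which gave 3 brain libraries and, after the submitters dropped the spleen pool of the third occasion for quality, 2 spleen libraries. Spread between libraries is therefore spread between occasions and pools, not between single animals, and a single cell line limits what the groups stand for.

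DNA replication starts in G1, when the origin recognition complex, CDC6 and CDT1 load the ring-shaped MCM2-7 helicase onto DNA in an inactive form. At the start of S phase CDC45 and the GINS complex join MCM2-7 to make the working helicase, and DNA polymerases follow behind it with their primase, sliding clamp and clamp loader. Most of these genes are transcribed in late G1 and S phase under E2F transcription factors, which are released when cyclin-dependent kinases inactivate the retinoblastoma protein. Acute lymphoblastic leukaemia is a disease of dividing precursors, and several standard drugs used against it act on nucleotide supply or DNA synthesis.

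Library totals ran from 38387991 to 48764202 estimated counts. Defining markers of precursor B cells were present: 9 of the 10 markers listed averaged at least 1 CPM (estimated counts scaled to a library of equal size), with VPREB1 the exception at 0, and their summed level ran from 6572 to 7092 CPM in brain libraries and from 6687 to 7153 CPM in spleen libraries. None of the 5 T cell and none of the 5 erythroid markers reached 1 CPM, and the defining genes CD3D and AHSP were at 0. Of the 5 myeloid markers 2 did (MPO and CSF1R), with sums of 28.3 to 40.1 CPM in brain and 18.9 to 21.9 CPM in spleen. The share of estimated counts on mouse transcripts was 5.70%, 2.58% and 2.64% in brain and 6.33% and 8.87% in spleen. Both spleen libraries lay above all brain libraries, but an exact two-sided permutation test over the 5 libraries gave p = 0.2, the smallest value that 3 against 2 allows. Both the mouse share and the genes below separate the sites, so site and mouse share cannot be told apart in 5 libraries.

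The replication genes sat lower in the brain libraries. Of the 41 genes, 7 were lower in brain by the quasi-likelihood test of edgeR at an adjusted p of 0.05 and 0 were higher; at an unadjusted p under 0.05 there were 24 lower and 0 higher (11.3% and 14.2% of all genes tested), and DESeq2 and limma also called 0 higher. The 7 were CDC6, MCM4, MCM5, GINS2, POLA1, POLE2 and RRM2. Over all 20419 genes tested, 3.50% were called lower and 6.01% higher, against 17.1% and 0 of the members. Among the 7519 tested genes at or above the level of the lowest member, 6.34% were called lower and 6.76% higher. The log2 fold change, brain over spleen, was below 0 for 37 of the 41 genes, with a median of -0.30 and a range from -0.53 to 0.29. Over all genes tested the median was 0.01, and over those 7519 genes it was -0.02. In 32 genes all 3 brain libraries lay below both spleen libraries, a pattern found in 19.5% of all genes tested and in 26.5% of the 7519. In 1 gene, CDT1, all brain libraries lay above, which 23.3% of all genes tested did. The remaining 8 genes overlapped between the sites. These genes are transcribed together and share 5 libraries, so their number does not stand for independent observations. In bulk RNA, fewer cells in S phase and less RNA per cell cannot be told apart.

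The summed level of the 41 genes was 8590, 8426 and 8233 CPM in the brain libraries and 10309 and 9356 CPM in the spleen libraries. The brain total was thus 85.6% of the spleen total, and the spleen libraries differed from each other by more than the 3 brain libraries did. Between libraries with the same replicate number in their titles, which the labels' protocols use for the occasion, brain was below spleen in 36 of 41 genes in replicate 1 and in 38 in replicate 2. The deposited tables number the spleen columns differently, so this pairing rests on the titles alone. The same 36 genes were below in both, with median log2 differences of -0.32 and -0.19. Of all 20419 genes tested, 9666 were below in replicate 1, 9956 in replicate 2 and 6650 in both, with medians of 0.02 and 0.01.

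**Figure D1:**
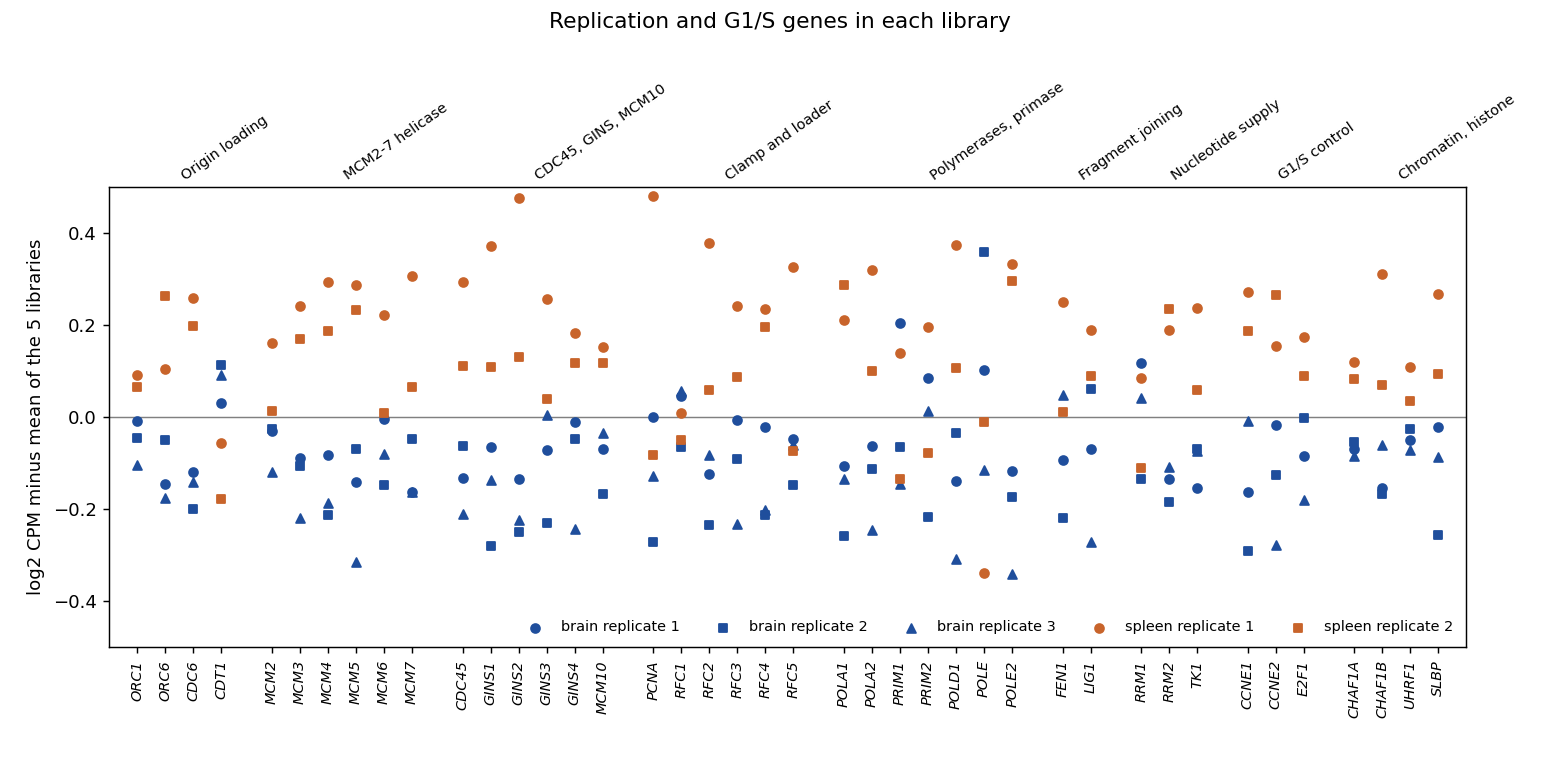
Level of each of the 41 genes in each library as log2 distance from that gene's mean over the 5 libraries, grouped by role along the x axis. Brain libraries lie below spleen libraries for most genes; CDT1 and POLE are the clearest departures.

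**Figure D2:**
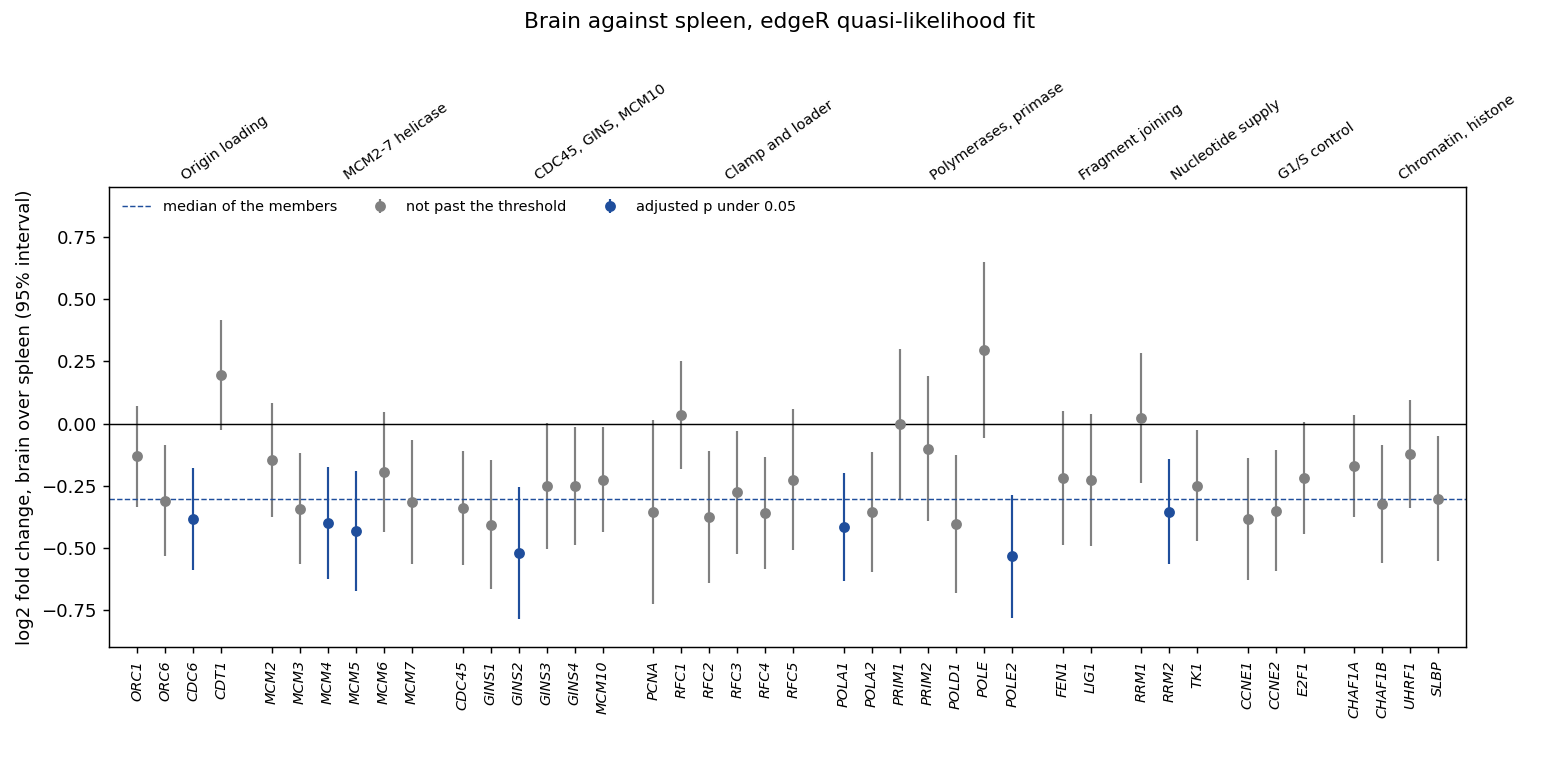
Log2 fold change of brain over spleen for each gene with its 95% confidence interval, grouped by role, with the 7 genes past an adjusted p of 0.05 marked. The points run from -0.53 for POLE2 to 0.29 for POLE.

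E2F proteins bind DNA through a short GC-rich core with a run of T or A on 1 side. E2F is the usual regulator of these genes, so the letters in front of them are shown here. The genes were chosen for their function, so these letters describe the list and not a difference between the sites. RefSeq promoter windows (GRCh38.p14, 250 bases before to 50 after a start) were present for 37 of the 41 genes, in 48 windows; MCM4, MCM5, GINS4 and CCNE2 had none. The letters TTTCCCGC, TTTGGCGC, TTTCGCGC and TTTGCCGC were searched on both strands. At least 1 of these forms occurred in 18 of 37 genes, or 48.6% (exact 95% binomial interval 31.9 to 65.6%, counting error only). Among all 27305 genes with a window the share was 3.99%. The pentamer CCAAT, searched the same way, was in 22 of the 37 genes (59.5%) against 39.7% of all genes. A letter match is a description and not a bound site, and no match says only that these letters are not in the window.

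The stretches below, read 5′ to 3′ on the gene's strand and ending before the RefSeq start, show the matched letters in capitals with up to 15 bases on each side. They are MCM6 (chr2:135876507-135876610, minus strand), MCM3 (chr6:52284894-52284931, minus), GINS2 (chr16:85688963-85689000, minus), POLA1 (chrX:24693766-24693803, plus), CDT1 (chr16:88803739-88803776, plus), PCNA (chr20:5126659-5126696, minus) and E2F1 (chr20:33686386-33686433, minus). GINS2 and POLA1 are shown because they were called lower in brain, MCM3 and MCM6 as helicase subunits, CDT1 because it was the member whose brain libraries all lay higher, PCNA because its spleen libraries differed most, and E2F1 because it encodes the factor.
MCM6: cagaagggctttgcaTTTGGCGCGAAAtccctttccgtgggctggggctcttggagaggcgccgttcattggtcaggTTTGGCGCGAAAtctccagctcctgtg
MCM3: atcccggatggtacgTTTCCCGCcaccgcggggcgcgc
GINS2: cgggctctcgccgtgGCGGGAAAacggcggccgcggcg
POLA1: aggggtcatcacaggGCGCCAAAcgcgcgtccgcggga
CDT1: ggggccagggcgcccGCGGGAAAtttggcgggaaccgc
PCNA: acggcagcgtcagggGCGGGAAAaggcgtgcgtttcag
E2F1: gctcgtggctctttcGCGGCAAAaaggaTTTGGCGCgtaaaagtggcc

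In MCM6 each capital run holds overlapping forms on opposite strands. GINS2, PCNA and CDT1 carry the same 8 letters, GCGGGAAA, and the log2 fold change was negative for GINS2 and PCNA and positive for CDT1. RRM2, which was called lower, held none of the 4 forms in its windows, while CDC6, GINS2, POLA1 and POLE2, also called lower, each held 1 match. A relation between these letters and the fold changes was not tested. Along the 48 windows the match centres were densest in the 25 bases before the start, with 12.5 per 100 windows. In the 25 bases after it there were 10.4 per 100. Over all windows these bins held 0.333 and 0.293 per 100. Overlapping matches on opposite strands were counted separately. Of the 5 matches in the bin after the start, 2 were such a pair in MCM2.

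**Figure D3:**
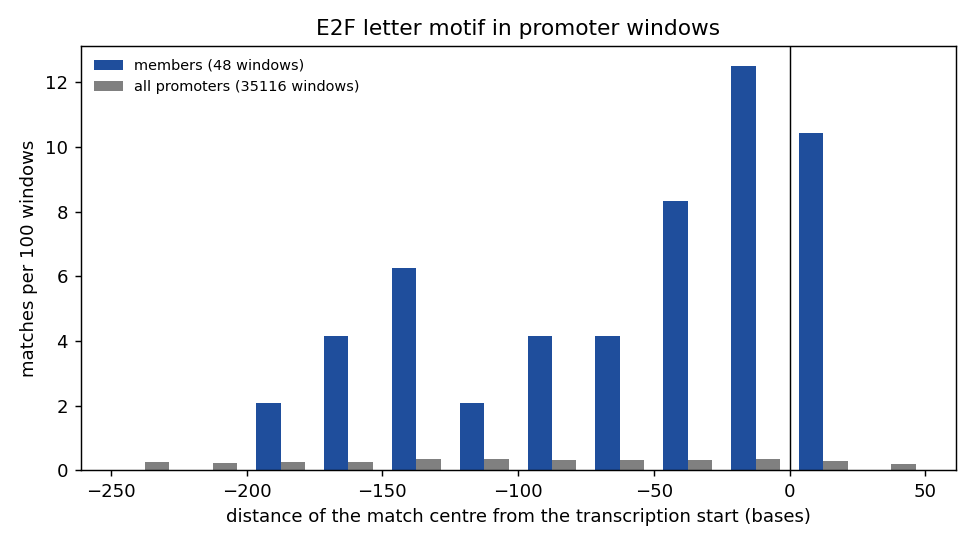
Matches to the 4 E2F letter forms per 100 promoter windows in 25-base bins, against distance from the RefSeq start in bases, for the 48 member windows and for all windows. The member windows peak beside the start, at 12.5 per 100 windows in the bin before it.

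Origin recognition and helicase loading were represented by ORC1, ORC6, CDC6 and CDT1. CDC6, the ATPase that loads the helicase (ENSG00000094804, chr17:40287879-40304657 in GRCh38), stood at 97.9, 92.4 and 96.4 CPM in the brain libraries and 127 and 122 CPM in the spleen libraries. All brain values were below both spleen values, and the fold change on the log2 scale was -0.38 (SE 0.0908, adjusted p = 0.0333 by edgeR), or 76.6% of the spleen level. CDT1, its loading partner that geminin holds in check (ENSG00000167513, chr16:88803789-88809258), gave 234, 247 and 244 CPM in brain and 220 and 202 CPM in spleen. Its brain values were all higher, but the log2 fold change of 0.19 did not pass the test (95% interval -0.02 to 0.41, adjusted p = 0.249 by edgeR). ORC6, a small subunit of the origin recognition complex, was at -0.31 on the log2 scale (adjusted p = 0.084 by edgeR). ORC1, its ATPase subunit, had one of -0.13 with an interval from -0.34 to 0.07. The brain sum of the 4 genes was 95.1% of the spleen sum, since CDT1 is abundant and ran the other way.

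The 6 subunits of the MCM2-7 ring all had every brain library below both spleen libraries, and 2 of the 6 passed the test. Over all genes tested 19.5% separated in that way and 3.50% were called lower, or 26.5% and 6.34% of the 7519. The same shares apply to the counts of each complex below. MCM5 (ENSG00000100297, chr22:35400134-35425431) stood at 350, 368 and 310 CPM in brain and 471 and 453 CPM in spleen. The brain level was 74.1% of the spleen level (log2 fold change -0.43, SE 0.107, adjusted p = 0.0386 by edgeR). MCM4 (ENSG00000104738, chr8:47960185-47978160) stood at 435, 398 and 405 CPM in brain and 565 and 525 CPM in spleen. Its log2 fold change was -0.40 (SE 0.0993, adjusted p = 0.0386 by edgeR). With the replicate number as a block, which compares the sites within replicates 1 and 2 only, neither MCM5 nor MCM4 passed (edgeR adjusted p = 0.0751 and 0.0636). MCM7, the most abundant of the MCM2-7 genes with a level per length, gave 609, 659 and 609 CPM in brain and 843 and 713 CPM in spleen. The spleen libraries were 130 CPM apart, and its log2 difference, -0.31, did not pass the test (SE 0.110, adjusted p = 0.112 by edgeR). MCM3 was at -0.34 (adjusted p = 0.0617 by edgeR), MCM6 at -0.20 and MCM2 at -0.15 on the same scale. Without spleen replicate 1 the values of MCM6 and MCM2 were -0.093 and -0.079, and without spleen replicate 2 they were -0.30 and -0.22. The summed MCM2-7 level was 2578, 2579 and 2429 CPM in brain and 3288 and 2978 CPM in spleen, 80.7% of the spleen level. The 6 proteins form a ring with 1 copy of each, and their 95% intervals for the log2 fold change overlapped; differences between subunits were not tested.

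The partners that turn the loaded ring into a working helicase, CDC45, the 4 GINS subunits and MCM10, also separated between the sites in 6 of 6 genes, with 1 past the test. GINS2 (ENSG00000131153, chr16:85676198-85690073) stood at 74.7, 69.0 and 70.3 CPM in brain and 114 and 90.0 CPM in spleen. The brain libraries were close together and the spleen libraries were not, and the log2 fold change was -0.52 (SE 0.117, adjusted p = 0.0288 by edgeR), or -0.34 without spleen replicate 1. GINS1 was at -0.41 on the log2 scale (adjusted p = 0.0575 by edgeR, or 0.0352 with the replicate block), and GINS3 and GINS4 were both at -0.25. The 4 GINS genes together gave 267, 241 and 254 CPM in brain against 359 and 302 CPM in spleen, or 76.9%. CDC45, the most abundant gene per length of these 6, gave 77.7, 81.6 and 73.6 CPM in brain and 105 and 92.0 CPM in spleen. Its log2 fold change of -0.34 did not pass the test (adjusted p = 0.0696 by edgeR), nor did that of MCM10, a scaffold for helicase activation, at -0.23.

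**Figure D4:**
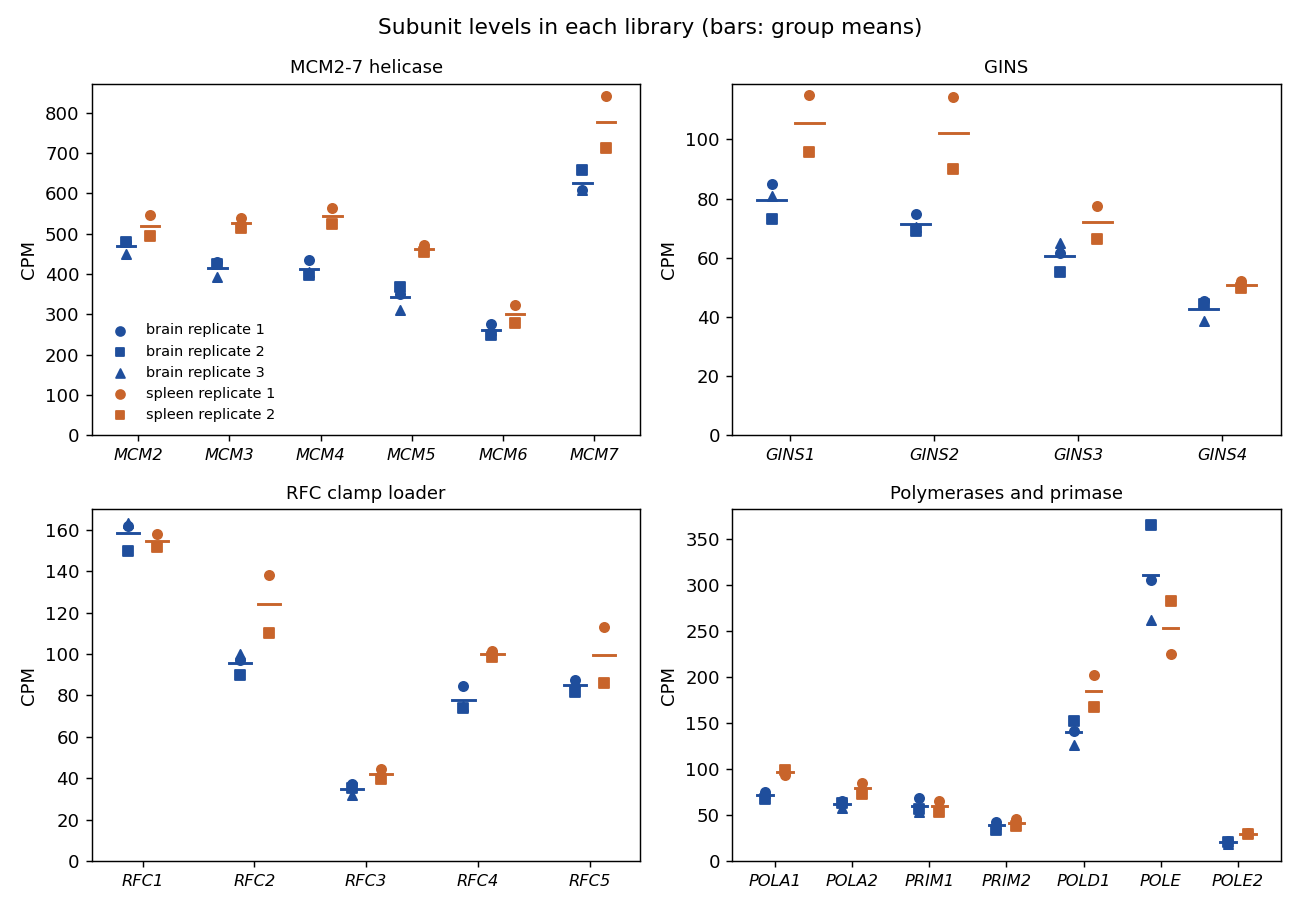
Level in CPM of each subunit in each library (circle, square and triangle for replicates 1, 2 and 3; bars are group means) for MCM2-7, GINS, the RFC clamp loader, and the polymerases with primase. Every MCM2-7 and GINS subunit has its brain libraries below both spleen libraries, while RFC1, RFC5, PRIM1, PRIM2 and POLE overlap.

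PCNA, the ring that tethers polymerases to DNA (chr20:5114953-5126626), differed most between the spleen libraries. It stood at 528, 437 and 483 CPM in brain and at 737 and 499 CPM in spleen. Spleen replicate 1 was 1.48 times spleen replicate 2, the brain and spleen ranges overlapped, and the log2 fold change of -0.36 had a 95% interval from -0.72 to 0.01 (adjusted p = 0.21 by edgeR). Without spleen replicate 1 it was -0.056, and without spleen replicate 2 it was -0.61 and passed the test (adjusted p = 0.024 by edgeR). Of the 5 subunits of replication factor C, which loads that ring, 3 separated (RFC2, RFC3 and RFC4) and 0 passed the test. RFC2 and RFC4 came nearest, with log2 fold changes of -0.37 and -0.36 (adjusted p = 0.0805 and 0.0548 by edgeR), and RFC2 passed with the replicate block (adjusted p = 0.0497 by edgeR). RFC1, the large subunit, gave 162, 150 and 163 CPM in brain and 158 and 152 CPM in spleen. Its values interleaved, with a log2 fold change of 0.03 and an interval from -0.18 to 0.25.

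Among the polymerase genes the catalytic and accessory subunits of DNA polymerase epsilon, the leading-strand enzyme, had opposite signs. POLE2, the accessory subunit (ENSG00000100479, chr14:49643555-49688422), was the member with the largest decrease. It stood at 21.8, 21.0 and 18.6 CPM in brain and 30.0 and 29.3 CPM in spleen, 69.1% of the spleen level (log2 fold change -0.53, SE 0.109, adjusted p = 0.02 by edgeR). POLE, the catalytic subunit (ENSG00000177084, chr12:132623753-132687376), gave 306, 365 and 263 CPM in brain and 225 and 283 CPM in spleen. Its sites overlapped, since brain replicate 3 lay below spleen replicate 2, and its log2 fold change was 0.29 (95% interval -0.06 to 0.65, adjusted p = 0.28 by edgeR). In the pairs of equal replicate number POLE was higher in brain by 0.44 and 0.37 on the log2 scale. With that number as a block, where only replicates 1 and 2 hold both sites, it passed the test as higher (adjusted p = 0.048 by edgeR). Its log2 fold change without the block ran from 0.13 without spleen replicate 1 to 0.47 without spleen replicate 2 and did not pass with all 5 libraries or with any 1 left out. POLA1, the catalytic subunit of the primase-bound polymerase alpha (ENSG00000101868, chrX:24693873-24996986), stood at 75.3, 67.7 and 73.8 CPM in brain and 93.9 and 99.0 CPM in spleen. All brain values were lower, and the log2 difference was -0.42 (SE 0.0953, adjusted p = 0.03 by edgeR). POLA2, its accessory subunit, was at -0.36 (adjusted p = 0.0719 by edgeR). Of the primase subunits, PRIM1 was at -0.0031 with an interval from -0.30 to 0.30, and PRIM2 at -0.10 with an interval from -0.39 to 0.19. These intervals overlap those of POLA1 and POLA2, and the differences were not tested. POLD1, the catalytic subunit of polymerase delta on the lagging strand, was at -0.40 (adjusted p = 0.0725 by edgeR) with separated libraries. Summed over POLD1, POLE and POLE2 the brain level was 100.7% of the spleen level, because POLE is the most abundant of the 3 in CPM.

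FEN1 trims the flap at the end of an Okazaki fragment and LIG1 seals the nick. FEN1, the more abundant of the pair per length, gave 179, 164 and 197 CPM in brain and 227 and 192 CPM in spleen. The sites overlapped, and neither FEN1 (log2 fold change -0.22) nor LIG1 (-0.23) passed the test. The brain levels were 85.9% and 85.4% of the spleen levels, with 95% intervals up to 103.5% and 102.6%.

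Ribonucleotide reductase, which makes deoxynucleotides, has a large and a small subunit. RRM2, the small subunit whose level rises in S phase (ENSG00000171848, chr2:10120698-10211725), stood at 267, 258 and 272 CPM in brain and 335 and 345 CPM in spleen. Both groups were tight, and the log2 fold change was -0.36 (SE 0.0932, adjusted p = 0.0464 by edgeR; 0.0636 with the replicate block). RRM1, the large subunit, which is long-lived as a protein, gave 337, 283 and 319 CPM in brain and 329 and 287 CPM in spleen. Its values interleaved, with a log2 fold change of 0.02 and an interval from -0.24 to 0.28. The intervals of RRM1 and RRM2 overlap, and their difference was not tested. TK1, the thymidine salvage kinase, separated but did not pass the test (log2 fold change -0.25, adjusted p = 0.151 by edgeR).

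The G1/S regulators CCNE1, CCNE2 and E2F1 all separated, and 0 of 3 passed. E2F1, more abundant per length than CCNE1 (CCNE2 had no such level), gave 175, 185 and 163 CPM in brain and 209 and 197 CPM in spleen (log2 fold change -0.22, adjusted p = 0.206 by edgeR). CCNE1 and CCNE2 encode cyclin E, the partner of CDK2 at S phase entry. Their log2 fold changes were -0.38 and -0.35 (adjusted p = 0.0587 and 0.0752 by edgeR), and CCNE1 passed with the replicate block (adjusted p = 0.0288 by edgeR).

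UHRF1, which reads hemimethylated DNA behind the fork and recruits the maintenance methyltransferase (ENSG00000276043, chr19:4903080-4962154), had by far the highest CPM of the 41 genes. It gave 1638, 1666 and 1613 CPM in brain and 1829 and 1737 CPM in spleen. All brain values were lower, and the log2 fold change was -0.12 (SE 0.0957, adjusted p = 0.481 by edgeR). CHAF1A and CHAF1B, subunits of the chromatin assembly factor that places histones on new DNA, were at -0.17 and -0.32 on the log2 scale. SLBP, which binds the stem-loop of histone mRNA, was at -0.30 (adjusted p = 0.126 by edgeR). All 4 genes separated and 0 passed.

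Levels of different genes can be compared only per length. Levels as TPM (transcript abundance corrected for length and library size) were available for 37 of the 41 genes. For MCM4, CCNE2, POLE2 and POLA2 under 95% of the gene count lay on transcripts that could be matched. The matched shares were 6.93%, 81.8%, 89.7% and 91.7% in that order. In brain the highest were UHRF1 at 537 ± 35.3 TPM (SD, n = 3), PCNA at 492 ± 20.7 TPM and MCM7 at 325 ± 33.2 TPM. In spleen PCNA came first at 635 ± 132 TPM (SD, n = 2) and UHRF1 second at 589 ± 23.5 TPM. The spread of PCNA between the spleen libraries is larger than the gap between these genes, so their order is not resolved there. At the low end were GINS4 at 16.2 ± 1.58 TPM and POLA1 at 17.5 TPM in brain. The highest gene was 33.3 times the lowest in brain.

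**Figure D5:**
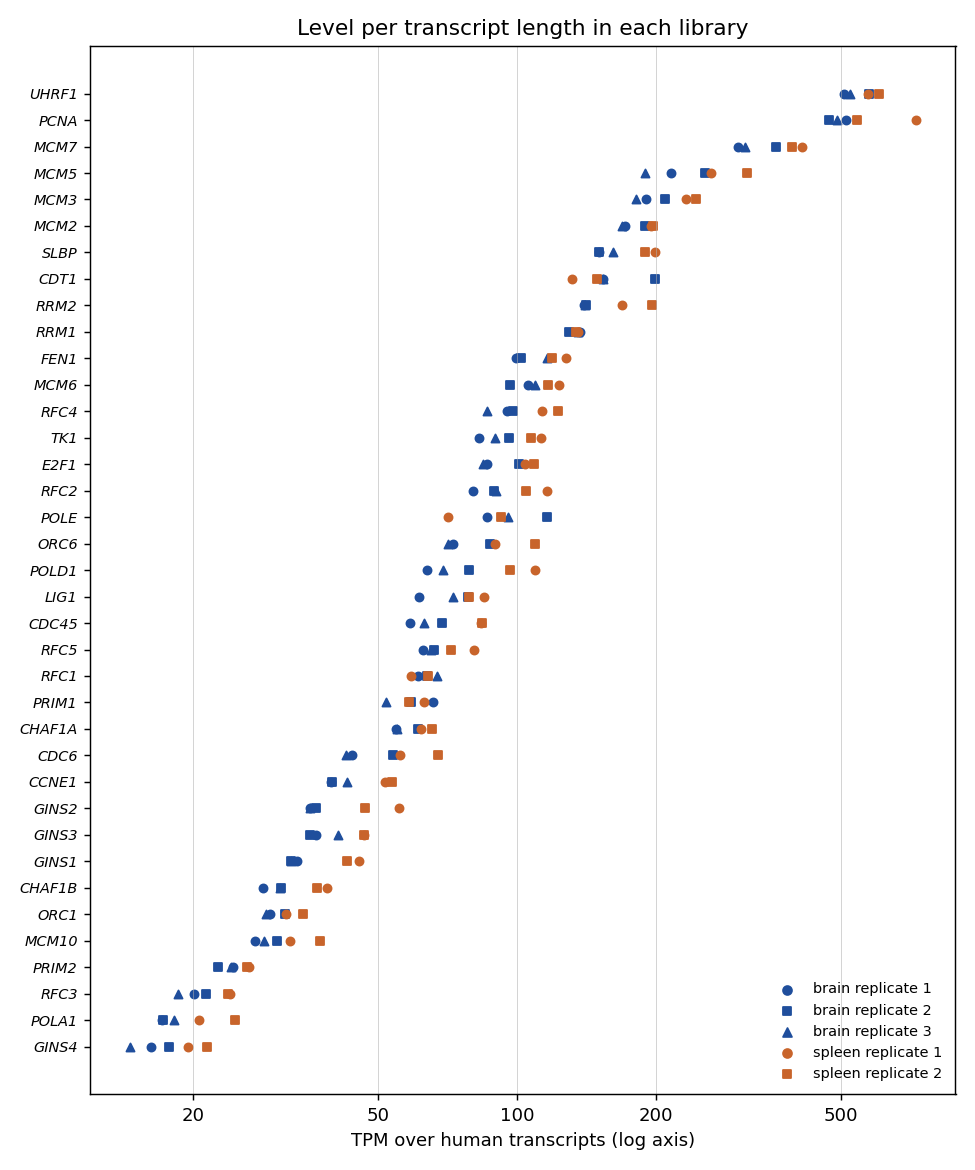
Level of 37 genes in TPM on a log axis, 1 row per gene, with a point for each of the 3 brain and 2 spleen libraries, ordered by the mean over all of these libraries. UHRF1, PCNA and MCM7 are highest, and POLA1 and GINS4 are lowest.

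The main transcript of each gene, the one with the highest mean TPM over the 5 libraries, was compared between sites. It held over 80% of the TPM of its gene at both sites in 16 of the 37 genes. For 36 of 37 genes the main transcript was protein coding; MCM7 was the exception, with a transcript annotated as retained intron at 62.6% of its TPM in brain and 63.7% in spleen. In 31 of the 37 the share of the main transcript moved by under 5 percentage points between sites. The largest shift of a main transcript was that of SLBP-202, at 16.8%, 38.8% and 38.7% of the SLBP TPM in brain and 50.1% and 33.3% in spleen, values that overlapped. In brain replicate 1 SLBP-201 held more than SLBP-202, at 25.2%. Transcript POLA1-201 took 7.45%, 8.65% and 13.6% of the POLA1 TPM in brain and 27.8% and 14.9% in spleen. Transcript ORC1-202 took 92.1% in brain and 85.0% in spleen on average. The brain and spleen libraries did not overlap for POLA1-201 or ORC1-202. Of the other main transcripts, only MCM3-201, GINS4-201, RFC3-201, FEN1-201 and RRM1-201 did not overlap. The shares of GINS4-201 and RRM1-201 were higher in brain, and those of MCM3-201, RFC3-201 and FEN1-201 lower. How often transcripts of all genes separate in this way was not computed, so nothing is read from these names. No test was run on these shares. A short transcript gains TPM share from its length, so these shares are not molecule counts checked by another method.

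Among 61 other genes of the same pathways, 9 were lower in brain and 0 higher, where all genes gave 3.50% and 6.01%. At an unadjusted p under 0.05 there were 25 and 1, where all genes gave 11.3% and 14.2%. The median log2 fold change of the 61 genes was -0.22. Of 16 further fork genes 5 were lower, namely POLD2, POLD3, RPA1, RNASEH2A and TIPIN. Of 14 G1/S genes 3 were (E2F2, E2F8 and CDC25A), of 8 nucleotide genes 1 was (DTYMK, which makes thymidine diphosphate), and of 16 origin and helicase genes and 7 chromatin genes 0 were. TIPIN, a fork-protection subunit, stood at 26.7, 23.2 and 27.4 CPM in brain and 38.5 and 37.4 CPM in spleen (log2 fold change -0.56, adjusted p = 0.0167 by edgeR). POLD3, an accessory subunit of polymerase delta, stood at 80.3, 74.1 and 76.2 CPM in brain and 104 and 105 CPM in spleen (log2 fold change -0.44, adjusted p = 0.0204 by edgeR). Neither gene overlapped between sites. DTYMK (-0.56), E2F8 (-0.55), POLD2 (-0.54) and E2F2 (-0.44) had adjusted p of 0.021, 0.0235, 0.024 and 0.035 by edgeR. MKI67, the usual proliferation marker, gave 329, 343 and 392 CPM in brain and 389 and 506 CPM in spleen. Its libraries overlapped, and its log2 fold change of -0.33 did not pass the test (SE 0.136, adjusted p = 0.161 by edgeR).

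Of the 41 genes, 14 have a neighbour whose start lies within 1000 bases in the opposite direction, and 13 of these neighbours were tested. Of them 4 passed, 2 lower and 2 higher, where all genes gave 3.50% and 6.01%; with 13 genes nothing is read from these counts. CDS2, 253 bases from PCNA, was higher in brain (log2 fold change 0.47, adjusted p = 0.037 by edgeR), and ARRDC5, 184 bases from UHRF1, was higher too (0.73, adjusted p = 0.0455 by edgeR). TACC3, beside SLBP, was lower (-0.45, adjusted p = 0.038 by edgeR), as was ABHD12, beside GINS1 (-0.37, adjusted p = 0.0492 by edgeR). Counts of genes whose exons overlap another gene are less certain. For overlaps on opposite strands, this is because the strand setting of the counting is not known. A single gene on the opposite strand covers up to 37.0% of CCNE2 exon bases (INTS8), 23.6% of MCM2 and 21.0% of GINS4. For GINS3 the share is 10.9%, and for MCM7 it is 7.90% (AP4M1). Overlaps on the same strand would not be separated by a strand setting. A single such gene covers up to 16.8% of POLA2, 10.9% of PRIM1 and 8.63% of POLD1 exon bases. NACA and FADS2, with higher mean counts than PRIM1 and FEN1, also overlap those genes on the same strand, over smaller shares.

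The 7 calls sit close to the threshold and each depends on the libraries present. With 1 library left out, 0, 0 and 1 of the 41 genes passed as lower without brain replicates 1, 2 and 3, the 1 being CCNE1; of all genes tested, 0.728%, 1.25% and 2.27% then did. Without spleen replicate 1 the number was 0, and without spleen replicate 2 it was 9, with MCM4, GINS2 and POLE2 kept of the 7, against 1.36% and 3.87% of all genes. With the mouse share of each library as a covariate, 0 of the 41 genes passed (adjusted p from 0.263 to 0.539 for the 7), and over all genes tested 11 were called lower. The log2 fold changes of the 7 ran from -0.69 to -0.33 over the 5 fits with 1 library left out, and the median of the members stayed negative in each of them and with the covariate.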

How the data were processed

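Poly(A) RNA libraries (TruSeq Stranded mRNA) of 3 brain and 2 spleen pools were used. Tools named in the submitters' processing notes are kallisto 0.42.4, cutadapt 1.5, bcl2fastq 1.8.4 and DESeq2, with the builds GRCh38 and GRCm38; the strand setting is not given in the sources used here. The authors deposited gene-level estimated counts as whole numbers, transcript tables with estimated counts and TPM, and log2 (rlog) values; 1 column of each gene table belongs to no sample and was not used. TPM were rescaled to human transcripts. Identifiers were matched to GENCODE 44 (86.4%, holding 99.76% of counts).

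Counts were tested with edgeR 4.0.16 (filterByExpr, TMM, quasi-likelihood F test, site as the only term), adjusted by Benjamini-Hochberg over 20419 genes at 0.05. CPM (counts scaled to equal library size) use TMM-scaled library sizes, except for the cell type markers, which use plain library totals. SE are on the log2 scale. The tests were checked on simulated data. DESeq2 1.42.0 and limma 3.58.1 gave alternatives. P-values measure only the spread between pooled libraries.

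The labels' protocols tie a replicate number to an occasion, so equal numbers in the titles pair the sites. The spleen columns carry other numbers than the titles, which leaves the pairing uncertain. A block on that number compares the sites within replicates 1 and 2 only, since brain replicate 3 has no spleen partner. Deviations of same-numbered libraries correlated at 0.030 and 0.275 over 12890 genes, and those of brain replicate 3 and spleen replicate 1 at 0.206. Each deviation was taken from the mean of its site, so those of the 2 spleen libraries are equal and opposite. With the other spleen library the values are therefore -0.030, -0.275 and -0.206 by construction. These correlations are not separate checks and do not settle the pairing. Members and lists were chosen with earlier results of these data known. Values of every library are given for genes past the threshold and for the most abundant gene per length of each role, for up to 6 other pathway genes with the smallest p, and for MKI67; library values of RFC1 and RRM1, and the transcripts, motif matches and neighbours named, were chosen after their values were seen. Mouse orthologue counts were not analysed here.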

Additional observations from a re-analysis of the deposited data

How the results depend on the processing

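Calls moved more than sizes. The median log2 fold change of the members ran from -0.36 to -0.21 over the 14 other settings. The 7 called genes kept their sign in each setting in which they were followed. On summed transcript estimates MCM4 and POLE2 were not followed, because too little of their gene counts lay on matched transcripts. The number of members called lower, 7 in the fit reported, was 11 with upper-quartile scaling (4.21% of all genes, against 3.50%), 12 with a filter at 1 CPM (6.01%), 16 with no filter on low counts (3.46%) and 19 with the DESeq2 Wald test (6.67%). It was 0 with the mouse share as a covariate (0.0539%). The other pathway genes, 9 lower and 0 higher, gave 16 lower and 1 higher with no filter, 19 lower with DESeq2 and 0 lower with the mouse share as a covariate. With the replicate number as a block, which pairs the sites by the titles' numbers, 7 members were lower and 1 was higher (POLE). Of all 20419 genes tested, 3.97% were then lower and 1233 genes were higher. That fit compares the sites within replicates 1 and 2 only. Under it MCM4, MCM5 and RRM2 no longer passed, and GINS1, RFC2 and CCNE1 did. PRIM1 turned to 0.068 under the block and to 0.11 with the mouse share. Leaving out 1 library gave 0 to 9 lower members, and 0 to 11 lower and 0 to 1 higher other pathway genes. Over the same fits the log2 fold change of PRIM1 ran from -0.14 to 0.13, that of PRIM2 from -0.24 to 0.036 and that of RRM1 from -0.077 to 0.12. In 16 of the 41 members at least 1 of these fits moved the log2 fold change by over 1.5 times, 15 of them without spleen replicate 1; GINS2 was the only called gene among them. RFC5 ran from -0.42 to -0.020, FEN1 from -0.34 to -0.10 and GINS3 from -0.36 to -0.14. Without a spleen library the lone spleen sample was assumed to vary as the brain samples do. The E2F letters were in 24.3% of members on the sense strand alone and in 27.0% within 100 bases before the start (2.17% and 1.43% of all genes). The causes were not tested. The lowest member count in any library was 838, so the spread between libraries limits the comparison more than depth does. The mouse orthologue counts were not run.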
